A study of Mus musculus with 20 samples.

Results

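Translation initiation factors and aminoacyl-tRNA synthetases were described by the H3K4me3 and H3K4me1 at their promoters in mouse embryo fibroblasts that lost Ash2l. The H3K4me3 regions were chosen by the gene name that the authors' annotation gave them, either a name starting with Eif or the name pattern of a tRNA synthetase. This gave 90 regions of 80 genes among 22343 H3K4me3 regions, of which 15563 had a gene name within 3000 bp of a transcriptional start site (TSS). H3K4me1 regions that shared at least 1 bp with them numbered 123 of 117165. Mrs2, a mitochondrial magnesium channel, and Rrs1, a ribosome biogenesis factor, match the pattern by their letters alone and are kept apart below.

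KMT2 complexes methylate lysine 4 of histone H3, and Ash2l is among their core subunits. Fibroblasts from day 13 mouse embryos carrying Ash2l fl/fl and Cre-ER had been immortalized, and KO1 (iMEF1) and KO2 (iMEF2) are independent lines of this genotype. Each line was treated with vehicle (ethanol, -HOT) or with 5 nM 4-hydroxytamoxifen for 5 days (+HOT), which recombines exon 4 of Ash2l, so the -HOT cells carry the floxed alleles and Cre-ER as well. For each mark there is 1 library per line and condition, 8 in all, so that every comparison rests on 2 lines, and wild type and input libraries were not used here. The promoter that drives Cre-ER is not given in the sources used here. The lines are cultured immortalized cells of bulk origin, and a lower signal in every cell cannot be told apart from a lost signal in a share of the cells.

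Initiation of translation needs a ternary complex of eIF2, GTP and initiator tRNA, which binds the small ribosomal subunit together with eIF1, eIF1A, eIF3 and eIF5. The cap-binding complex of eIF4E, eIF4G and eIF4A recruits this subunit to the mRNA, and the eIF4E-binding proteins, which mTORC1 phosphorylates, hold eIF4E back. eIF2B reloads eIF2 with GTP, and 4 kinases that phosphorylate eIF2 under stress block this exchange, which starts the integrated stress response. Aminoacyl-tRNA synthetases attach each amino acid to its tRNA, with separate enzymes for the cytosol and the mitochondria in most cases. Through the transcription factor ATF4 the integrated stress response is known to induce many cytosolic synthetase genes. H3K4me3 marks active promoters, most of all at CpG islands, and H3K4me1 is found at enhancers and at the flanks of promoters.

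ATF4 binds composite sites known as amino acid response elements, and the letters TGATGNAA of such a site were searched on both strands of a window that takes in 250 bp before the TSS and the 50 bp after it. The window has 300 bases of mm9, and a GENCODE start site was matched for 78 of the 80 genes. These letters were found in 8 of the 78 promoters (10.3%), against 1.89% of 12389 promoters of all genes. Of the 8, 7 belong to cytosolic tRNA synthetases, which is 36.8% of the 19 in the set, and the eighth is Eif2s3x, the gamma subunit of eIF2. The carriers are Aars, Cars, Gars, Iars, Nars, Tars and Yars, the synthetases for alanine, cysteine, glycine, isoleucine, asparagine, threonine and tyrosine. The sites are shown to give the letters by which these promoters were picked, and Nars is named only. Each sequence is from mm9, 5′ to 3′ on the strand of the gene, with the matching letters in capitals, which in all but Yars appear as their reverse complement.
Aars, chr8:113557740-113557769 (plus strand): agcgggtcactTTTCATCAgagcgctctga
Cars, chr7:150785950-150785979 (minus strand): cggcgccgcggTTGCATCAgattctggaag
Eif2s3x, chrX:91458068-91458097 (minus strand): ttcgccatcatTTTCATCAggtctatgccg
Gars, chr6:54987954-54987983 (plus strand): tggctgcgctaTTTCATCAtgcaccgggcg
Iars, chr13:49777495-49777524 (plus strand): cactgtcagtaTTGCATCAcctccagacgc
Tars, chr15:11329410-11329439 (minus strand): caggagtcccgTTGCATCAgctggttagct
Yars, chr4:128867139-128867168 (plus strand): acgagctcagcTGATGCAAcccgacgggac

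The whole 250 bp upstream of Gars are given to show where the letters lie before its TSS, with the letters in capitals.
Gars, chr6:54987745-54987994 (plus strand): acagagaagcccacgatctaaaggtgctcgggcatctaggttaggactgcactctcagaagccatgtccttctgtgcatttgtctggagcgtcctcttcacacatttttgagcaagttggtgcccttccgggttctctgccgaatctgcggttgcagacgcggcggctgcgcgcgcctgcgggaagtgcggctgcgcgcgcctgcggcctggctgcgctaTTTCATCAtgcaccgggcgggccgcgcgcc

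The letters shown begin 30 bp upstream of the TSS in Gars, 28 bp upstream in Aars, 15 bp upstream in Tars and 96 bp upstream in Eif2s3x, and those of Cars, Iars and Yars, and of Nars, whose sequence is not printed, lie just downstream of it. None of them overlapped another motif searched, and a match is a description of the sequence. The ETS letters CCGGAAG were found in 32 of the 78 promoters (41.0%), against 16.7% of all. Other letters were about as frequent as in all promoters: the GC box GGGCGG in 68.0% against 68.6%, CCAAT in 39.7% against 36.6%, TATAAA in 6.41% against 6.44% and the NRF1 letters GCGCATGC in 5.13% against 5.13%. The median GC content was 59.8% against 62.3%, and the median ratio of observed to expected CpG 0.803 against 0.777. A divergent TSS lay within 1000 bp of 11 of the promoters (14.1%, against 9.72% of all), and the reads of such a shared region cannot be assigned to either gene.

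The values are reads per region that the authors scaled within each line, and only -HOT and +HOT of the same line are compared. Reads in H3K4me3 regions ranged from 2441698 to 17708078 per library and were fewer in +HOT than in -HOT in both lines, while those in H3K4me1 regions ranged from 6157647 to 9048056 and were more in +HOT. The H3K4me3 scaling is to total coverage without an external standard, so a shift shared by all regions depends on it. All 10 fibroblast markers had an H3K4me3 promoter region over 20 reads in -HOT, with 77.3 to 1517 scaled reads in KO1. Of the markers of other cell types, 2 of 5 epithelial, 1 of 4 endothelial, 1 of 5 neural and 0 of 5 blood markers had such a region. At the Ash2l promoter 59.9% (KO1) and 53.1% (KO2) of the H3K4me3 reads were kept, a mean log2 ratio of -0.82 with an adjusted p = 0.0417 by limma. Whether that region covers the deleted exon was not examined, and this value does not check the deletion.

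H3K4me3 fell at 52 of the 87 regions that could be tested and rose at none. A region is said to have fallen or risen when limma, with the line as a block, gave an adjusted p under 0.05 (Benjamini-Hochberg over all tested regions of the mark). Of all 16129 tested regions 86.5% fell, so the share among initiation factors and synthetases (59.8%) was lower than this background. The ratio of +HOT to -HOT was below 1 in both lines at all 87 regions on the authors' scaling. This held for 15943 of all 16129 tested regions too. The median log2 ratio was -0.87, with -0.74 in KO1 and -1.02 in KO2, against -1.36 over all regions, with -1.06 and -1.63. The median region kept 59.9% of its reads in KO1 and 49.4% in KO2. For H3K4me3, limma gave all regions the same standard error of 0.391 (n = 2 lines), and the call therefore follows the size of the mean log2 ratio alone. The last member called stood at -0.79 (Iars2) and the next without a call at -0.78 (Eif4b), so that many regions lie close to the limit. No member rose at an unadjusted p under 0.05 either, by limma or by edgeR. With edgeR 85 of the 87 were called as fallen, against 15238 of all 16129 tested regions.

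The direction depends on the scaling. When the median log2 ratio of all regions was set to 0 in each line, 71 of the 87 regions were above 0 in both lines. Of the 87, 25 were called higher and 3 lower than the median region, in place of 0 higher and 52 lower. Among all 16129 tested regions 6633 were above 0 in both lines, with 1519 called higher and 3744 lower. The median log2 ratio of the 87 was then 0.475, against 0.42 for the promoters that the authors' lists class as High in both lines. Of those 6405 promoters 5169 were above 0 in both lines, with 1230 called higher and 38 lower. Falls are given on the authors' scaling. Of the 87 regions only the 3 upstream regions of Eif5a, Eif2b5 and Eif2ak3 were called lower under both scalings. Those of Eif2b5 and Eif2ak3 held 13 and 18 +HOT reads in KO1. In that line they passed the test's minimum of 20 reads through -HOT alone. Without the line as a block no region passed in either direction, for the 87 or for all regions, and 0 of the 87 had an unadjusted p under 0.05.

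Most of these promoters are strongly marked. Of the 87 regions 68 were classed High in both lines, against 6405 of the 13512 tested named promoter regions. Of the 68 regions 34 fell, with a median log2 ratio of -0.79. Among all promoters High in both lines 71.6% fell, with a median of -0.93. Of the 19 regions not High in both lines 18 fell, with a median of -1.40, against 97.5% and -1.74 for all promoters of that kind. Aars2 was the exception. The authors' classes use the reads of both -HOT and +HOT, so a region that lost more reads was more easily classed below High, and the split by class is a description that partly fixes this difference. The log2 ratio was lower in KO2 than in KO1 at 83 of the 87 regions (95.4%, against 95.7% of all regions), and the other 4 were Tars2, Eif4a3, Eif1b and Eif2s1. With the study's limits, a log2 ratio under -0.58 in each line and over 20 reads, 66 of the 90 regions counted as lost. Of all 22343 regions it was 63.4%, but many of these are too weak to pass the limit on reads. Of the regions over 20 reads in both lines 66 of 87 were lost, against 14166 of 16129 overall regions. By that count the share lost was lower among initiation factors and synthetases. Counted by gene, with the strongest promoter region of each, 45 of 80 fell, against 83.9% of 12214 genes, with a median of -0.83 against -1.19.

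**Figure D1:**
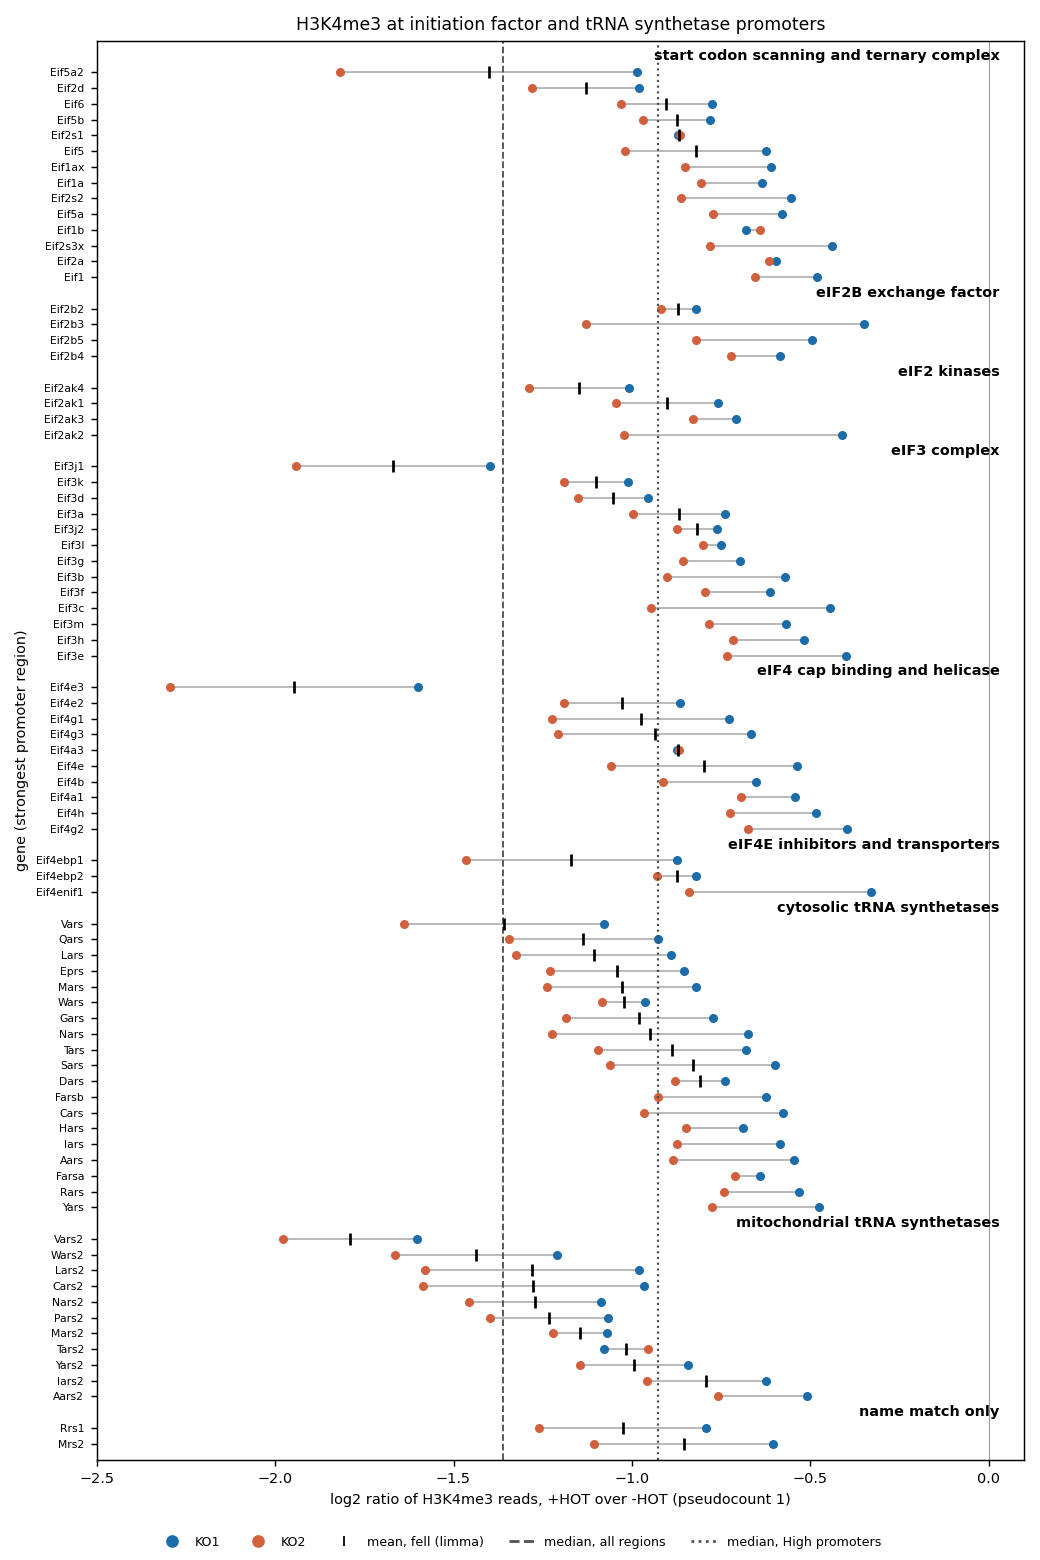
Each line of the plot is a gene at its strongest promoter region, grouped by role, with the log2 ratio of H3K4me3 reads of +HOT over -HOT on the x axis for KO1 (blue) and KO2 (orange), a black tick at the mean where limma called a fall, a dashed line at the median of all regions (-1.36) and a dotted line at that of promoters High in both lines (-0.93). All points lie below 0 on the authors' scaling, and most lie to the right of the dashed line. Setting the median region to 0 uses the median of each line, -1.06 in KO1 and -1.63 in KO2, and not the dashed line. Most points would then turn positive.

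The group named for start codon scanning and the ternary complex, called start codon factors below, also holds factors with other roles, such as Eif5a, Eif5a2 and Eif6. In this group 8 of 16 tested regions fell, against 86.5% of all tested regions. Its median log2 ratio was -0.78 and became 0.57 when the median region was set to 0. The lowest was the upstream region of Eif5a, the factor that carries the hypusine residue and helps ribosomes through difficult peptide bonds. It lies at chr11:69735189-69736301 (mm9), and its scaled H3K4me3 reads numbered 120.03 in -HOT and 29 in +HOT in KO1, and 592 and 104 in KO2 (-2.26, adjusted p = 7.3e-08). Eif5, which triggers GTP hydrolysis by eIF2, went from 694 to 450 and from 2039 to 1006 (-0.82, adjusted p = 0.0426). The highest was the main region of Eif1, which guards the fidelity of start codon choice, with 330.1 to 236 and 1312 to 833 (-0.57, adjusted p = 0.15), and it was not called. Within each line the +HOT value was the lower for all of these regions.

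Among the subunits of eIF2, Eif2s1 (alpha, the phosphorylated subunit) fell, with 793 to 433 reads in KO1 and 2816 to 1545 in KO2. It kept nearly the same share in both lines, 54.6% and 54.9%. Eif2s2 (beta) and Eif2s3x (gamma) had log2 ratios of -0.71 and -0.61 and no call. Eif5b, which joins the ribosomal subunits, Eif6, which keeps the large subunit apart, and Eif2d, which can deliver initiator tRNA without eIF2, fell by 0.87, 0.90 and 1.13 on the log2 scale. Eif5a2, the less widely expressed relative of Eif5a, fell from 245 to 123 and from 753 to 213 at its main region (-1.40, adjusted p = 0.00071), so that it kept 50.3% in KO1 and 28.3% in KO2. The scanning factors Eif1a, Eif1ax and Eif1b had values of -0.72, -0.73 and -0.66 without a call.

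Of the 5 tested regions of the exchange factor eIF2B, 2 fell, and of the 5 regions of the eIF2 kinases, 3 fell. The share over all tested regions was 86.5%. The lowest of the exchange factor regions lies upstream of Eif2b5, the catalytic epsilon subunit, at chr16:20496854-20497682, and went from 48.8 to 13 and from 212 to 33 (-2.24, adjusted p = 8.9e-08). The median and the highest were Eif2b3 (gamma) with 266 to 209 and 1303 to 595 (-0.74, adjusted p = 0.0655), and Eif2b4 (delta) with 669 to 446 and 2338 to 1416 (-0.65, adjusted p = 0.1). In Eif2b3 the lines differed, with 78.5% kept in KO1 and 45.7% in KO2. Eif2b2 (beta) fell (-0.87).

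Of the 4 kinases, the heme-regulated Eif2ak1 (HRI) fell from 346 to 204 and from 1436 to 695 (-0.90, adjusted p = 0.0271). Eif2ak4 (GCN2), which senses uncharged tRNA, fell from 329 to 163 and from 1402 to 573 (-1.15, adjusted p = 0.00545). Eif2ak2 (PKR), the sensor of double-stranded RNA, went from 289 to 217 and from 1103 to 543 (-0.72, adjusted p = 0.0735), so that KO1 kept 75.1% and KO2 49.2%, without a call. Eif2ak3 (PERK), the sensor of stress in the endoplasmic reticulum, had no call at its main region (-0.77, adjusted p = 0.0563). Its upstream region at chr6:70793513-70794228 fell from 59.3 to 18 and from 269 to 55 (-1.97, adjusted p = 2.2e-06). With the median region set to 0, the medians of the exchange factor and kinase regions became 0.60 and 0.44.

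The large scaffold eIF3 had 13 tested regions, of which 5 fell (38.5%, against 86.5% of all tested regions). The median was -0.78 and turned to 0.57 with the median region at 0. Eif3k (-1.10), Eif3d (-1.05), Eif3a (-0.87) and both regions named for Eif3j fell. The lowest was that of Eif3j1, which went from 144 to 54 and from 682 to 177 (-1.67, adjusted p = 5.5e-05), and the median was Eif3g, with 389 to 240 and 1239 to 684 (-0.78, adjusted p = 0.0541). The highest was Eif3e, with 470.4 to 356 and 2080.2 to 1250 (-0.57, adjusted p = 0.151). Eif3j1 and Eif3j2 are near-identical copies. The regions named for them lie side by side at chr2:121853245-121854165 and chr2:121854271-121856142, and GENCODE places the start of Eif3j in the latter, so the names are uncertain. The start matched to Eif3j1, at chr2:121854282, also lies in the region named for Eif3j2, and the region named for Eif3j1 lies upstream of it. They are counted here as regions of separate genes and do not enter the genes with 2 regions below. The subunits b, c, e, f, g, h, l and m had log2 ratios from -0.78 to -0.57 and no call.

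Of the cap-binding and helicase factors, 8 of 12 tested regions fell, against 86.5% of all tested regions. The median was -0.90 and became 0.44 with the median region at 0. Eif4e3, a divergent cap-binding relative of eIF4E, was the lowest, at chr6:99615619-99617384. KO1 went from 169 to 55 reads and KO2 from 798 to 162 (-1.95, adjusted p = 2.8e-06), and so kept 32.6% and 20.3%, the lowest shares among the strongest regions of the 80 genes. It was classed Medium in both lines. Eif4e itself fell by 0.80 on the log2 scale, close to the limit (adjusted p = 0.048), and the cap-binding Eif4e2 by 1.03.

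The scaffold genes differed in their values. Eif4g1 fell by 0.97 on the log2 scale, and Eif4g3 went from 431 to 271 and from 1421 to 615 (-0.94, adjusted p = 0.0221). Eif4g2 (DAP5), which lacks the eIF4E-binding part, had the highest log2 ratio of all 87 regions. Its region at chr7:118224459-118227849 held 710.4 reads in -HOT and 539 in +HOT in KO1, and 2549.5 and 1597 in KO2 (-0.54, adjusted p = 0.174), so that 75.9% and 62.6% were kept. The helicase Eif4a1 and its partners Eif4b and Eif4h had values of -0.62, -0.78 and -0.60 at their main regions and no call, while Eif4a3, the helicase of the exon junction complex, fell (-0.87). Differences between these genes were not tested.

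The eIF4E-binding proteins fell. Eif4ebp1 went from 533 to 290 and from 2183 to 790 (-1.17, adjusted p = 0.00465) and Eif4ebp2 from 515 to 291 and from 1474 to 774 (-0.87, adjusted p = 0.0317), but with the median region set to 0 both were above it. Eif4enif1 (4E-T), which carries eIF4E into the nucleus, fell only at its upstream region, with 173 to 86 and 805 to 327 (-1.15, adjusted p = 0.0055). Its main region went from 361 to 287 and from 989 to 552 (-0.58, adjusted p = 0.139).

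All 19 cytosolic tRNA synthetase promoters were High in both lines, and 11 of them fell, against 71.6% of all promoters of that class. The median was -0.83 and became 0.51 with the median region at 0. Vars (valine) was the lowest, at chr17:35137478-35140462, with 482 to 228 and 1809.9 to 580 (-1.36, adjusted p = 0.00103). It kept 47.3% and 32.0%. Sars (serine) was the median, with 389 to 256 and 1949 to 934 (-0.83, adjusted p = 0.0405), and Yars (tyrosine) the highest, with 737 to 530 and 2947 to 1721 (-0.63, adjusted p = 0.115). The others that fell were Qars (-1.14), Lars (-1.11), Eprs (-1.04), Mars (-1.03), Wars (-1.02), Gars, which also serves the mitochondria (-0.98), Nars (-0.95), Tars (-0.89) and Dars (-0.81). Farsb, Cars, Hars, Iars, Aars, Farsa and Rars had values from -0.78 to -0.64 without a call. Farsa and Farsb encode the subunits of the same phenylalanine enzyme and had values of -0.68 and -0.78. All 19 had a lower log2 ratio in KO2 than in KO1.

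The 7 cytosolic synthetases with the response element letters had a median log2 ratio of -0.77, from -0.98 to -0.63, and 3 of them fell. The 12 without the letters had a median of -0.93, from -1.36 to -0.64, and 8 of them fell. The ranges overlap, and the difference was not tested. For the ETS letters the medians were -0.85 in the 32 promoters with them, of which 17 fell, and -0.84 in the 46 without them, of which 26 fell.

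Of the 11 promoters of mitochondrial tRNA synthetases 10 fell, with a median of -1.23, of -1.07 in KO1 and -1.40 in KO2, and this count is near the background of 86.5%. With the median region set to 0 the median was 0.11 and no promoter was called lower. Vars2 (valine) was the lowest, with 224 to 73 and 1015 to 257 (-1.79, adjusted p = 1.6e-05), and Pars2 (proline) the median, with 177 to 84 and 718 to 272 (-1.23, adjusted p = 0.0029). Aars2 (alanine) was the highest and had no call, with 120.03 to 84 and 600 to 354 (-0.63, adjusted p = 0.11). Between them were Wars2 (-1.44), Lars2 (-1.28), Cars2 (-1.28), Nars2 (-1.27), Mars2 (-1.15), Tars2 (-1.02), Yars2 (-0.99) and Iars2 (-0.79). Only Iars2, Mars2 and Yars2 were High in both lines, and the median of these 3 was -0.99. The class, which itself uses the +HOT reads, moved with the compartment, and its part in the difference was not tested.

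For 10 amino acids both the cytosolic and the mitochondrial enzyme had a region of its own. The mitochondrial promoter had the lower log2 ratio in 9 of the 10 pairs, in 9 in KO1 and in 7 in KO2, with a median difference of -0.25. Before treatment it had fewer H3K4me3 reads per kb in 7 of the 10 pairs in KO1 and in all 10 in KO2. The widest gap was that of cysteine, with -0.77 for Cars and -1.28 for Cars2, and the exception was alanine, with -0.72 for Aars and -0.63 for Aars2. Each difference is a description over 2 lines and was not tested.

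**Figure D2:**
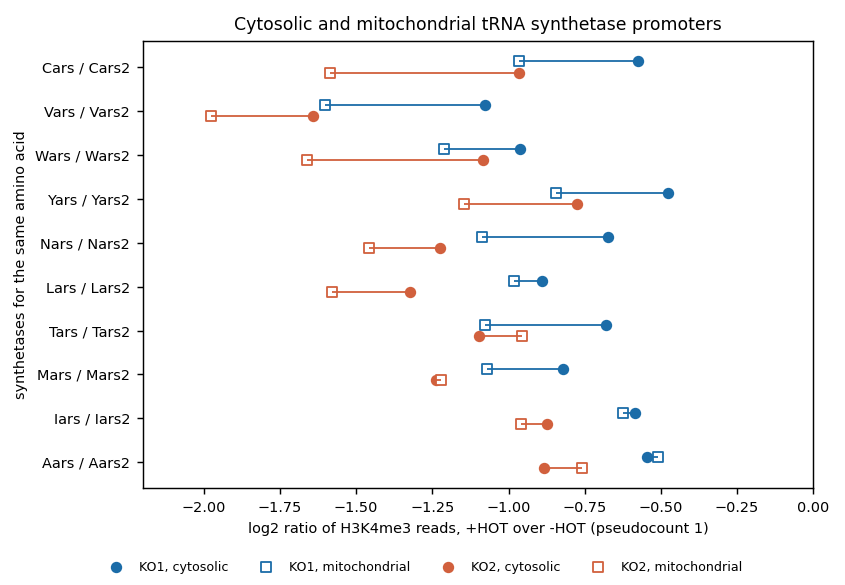
The plot gives the log2 ratio of H3K4me3 reads of +HOT over -HOT on the x axis for the cytosolic (filled circles) and mitochondrial (open squares) synthetase of each of 10 amino acids in KO1 (blue) and KO2 (orange). The square lies to the left of the circle in both lines except for Aars2 in both lines and Mars2 and Tars2 in KO2. All ratios are below 0 on the authors' scaling and depend on it.

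In 10 genes the promoter carried 2 H3K4me3 regions, and in 7 of them both could be tested: Eif1, Eif2ak3, Eif2b5, Eif4a1, Eif4enif1, Eif4h and Eif5a. In all 7 the weaker region, placed by its center, lay upstream of its nearest annotated TSS and fell. Of all promoter regions not High in both lines, as these 7 are, 97.5% fell. The weaker region had a lower log2 ratio than the stronger region in both lines, and none of the stronger regions was called. In Eif5a and Eif4enif1 that nearest TSS is not the one of the stronger region and lies within the weaker region. The median was -1.80 for the weaker and -0.62 for the stronger regions, and the median difference -1.18. Among 1197 genes with 2 tested regions the weaker was the lower in 78.4%, with a median difference of -0.66, and lay upstream in 64.0%. With the median region set to 0 the weaker regions had a median of -0.45, and 5 of the 7 were below 0 in both lines. The upstream region of Eif4a1 went from 21.8 to 6 and from 129 to 34 (-1.80), that of Eif1 from 48 to 15 and from 263 to 76 (-1.70), and that of Eif4h from 23.3 to 13 and from 152 to 44 (-1.28). These regions were classed Medium or Low, so that class, which uses the +HOT reads, and position moved together, and the difference itself was not tested. At the weaker regions of Eif1, Eif2ak3, Eif2b5, Eif4a1 and Eif4h the +HOT value of KO1 was under 20 reads. In KO1 each of them entered the test only through its -HOT reads, which favors a fall.

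**Figure D3:**
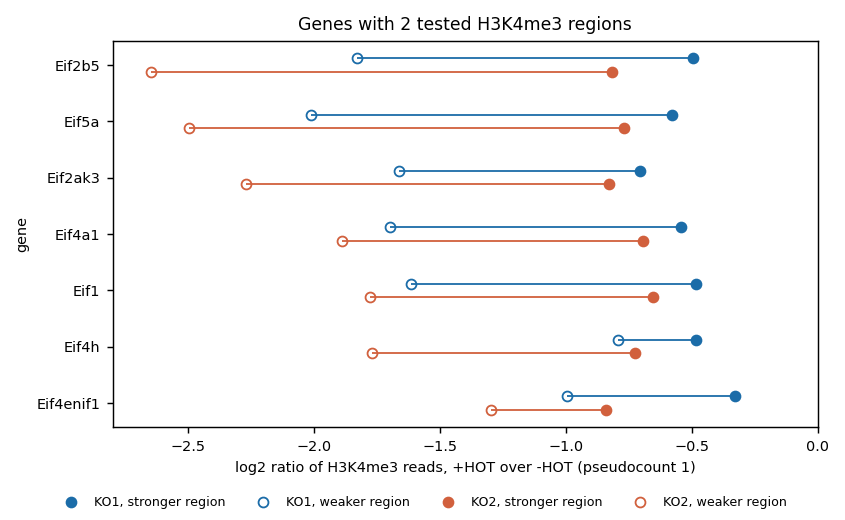
For each of 7 genes with 2 tested H3K4me3 regions the plot gives the log2 ratio of reads of +HOT over -HOT on the x axis, with filled circles for the stronger and open circles for the weaker region, in KO1 (blue) and KO2 (orange). The open circle lies to the left of the filled circle of the same line in every gene, with the widest gaps in Eif2b5 and Eif5a.

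The 3 regions that were not tested are weak neighbours of Eif1ax, Eif2s2 and Eif5a2, with 2.25 to 9.75 scaled reads in -HOT of KO1, under the minimum of 20. The regions matched by letters alone fell as well, Rrs1 by 1.03 and Mrs2 by 0.85 on the log2 scale. Of 15 symbols that fit the name pattern or the roles but have no region of that name, 13 start in a region named for another gene or unnamed. Eif3j and Hars2 start in the regions counted here as Eif3j2 and Hars, and the other 11 regions were not counted. Kars (lysine) starts in the region of Terf2ip (-0.73, no call) and Eif4a2 in that of Snord2 (-0.65, no call). Eif2b1, Ears2 and Sars2 start in regions that fell, named for Gtf2h3 (-0.81), Ubfd1 (-0.87) and Mrps12 (-1.02).

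Of the 35 regions without a call, those with the most reads in -HOT were Eif1a, Yars, Eif2a, Eif3b, Eif4g2, Eif2b4, Eif4a1, Iars, Eif4b, Eif2s2, Hars and Eif3e. Eif1a had the most, with 857 to 551 in KO1 and 2957 to 1690 in KO2 (-0.72, adjusted p = 0.0715). Eif2a, a factor distinct from eIF2 alpha, held 697 and 461 reads in KO1 and 2824 and 1844 in KO2 (-0.60, adjusted p = 0.126), and kept 66.1% and 65.3%. Eif3b went from 687 to 462 and from 2583 to 1382 (-0.74, adjusted p = 0.0661), Eif4a1 from 701 to 481 and from 2248 to 1388 (-0.62, adjusted p = 0.119), and Iars from 497 to 331 and from 2156 to 1177 (-0.73, adjusted p = 0.0686). Eif4b went from 552 to 351 and from 2092 to 1110 (-0.78, adjusted p = 0.0521), Eif2s2 from 478 to 325 and from 2133 to 1172 (-0.71, adjusted p = 0.0762), and Hars from 519.9 to 322 and from 2081 to 1155 (-0.77, adjusted p = 0.056). In each of the 12 the +HOT value was below the -HOT value in both lines.

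Other genes of translation and its control were counted by their strongest promoter region. Of the elongation and termination factors 8 of 17 fell, with a median of -0.75, from Pelo, which rescues stalled ribosomes (251 to 104 and 1104 to 305, -1.56), to Eef1a1, which delivers aminoacyl-tRNA (586 to 473 and 2065 to 1358, -0.46, no call). Of 15 other synthetase genes and tRNA partners 9 fell, with a median of -0.99, from Tarsl2, a threonine synthetase relative (183 to 45 and 609.9 to 89, -2.38), to Sepsecs, of the selenocysteine route (269 to 179 and 1017 to 655, -0.61, no call). Of the poly(A) binding and closed loop genes 7 of 11 fell, with a median of -0.89, from Paip2b (-1.54) to Pabpc1 (-0.71, no call), and of the mTORC1 and S6 kinase genes 10 of 15, with a median of -0.85, from Pdk1 (-2.13) to Rragc (-0.63, no call). Pdk1 stood in that list but encodes a pyruvate dehydrogenase kinase, and the next lowest was Lamtor2 (-1.26), which anchors mTORC1 at the lysosome. The background is 83.9% of genes with a median of -1.19. With the median region set to 0, 16 of the 75 genes in these lists and the list below were called higher and 6 lower. Of all 16129 tested regions 1519 were then called higher and 3744 lower, and of 6405 regions High in both lines 1230 and 38.

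Of 17 tested genes of the integrated stress response 13 fell, with a median of -1.06 (-0.74 in KO1 and -1.36 in KO2), the lowest median of the 5 lists. Atf3, a transcription factor induced by ATF4, was the lowest, with 239 to 55 and 1132 to 142 (-2.54, adjusted p = 2.35e-09), and Sesn2, an inhibitor of mTORC1, the highest, with 614 to 554 and 2546 to 1487 (-0.46, adjusted p = 0.24). The cystine transporter Slc7a11 (-2.23), the pseudokinase Trib3 (-2.09), and the serine synthesis enzymes Phgdh (-1.61) and Psat1 (-1.55) fell. Atf4 itself had a log2 ratio of -0.70 and no call. Nupr1 differed between the lines, with 77.2% kept in KO1, from 42.8 to 33 reads, and 15.5% in KO2. The share that fell (76.5%) was below the background of 83.9%.

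H3K4me1 rose over the same promoters. Of 113 tested H3K4me1 regions 83 rose and 3 fell, with a median log2 ratio of 1.06, of 1.07 in KO1 and 1.05 in KO2. Over all 78691 tested H3K4me1 regions 14.8% rose and 2.57% fell, with a median of 0.18. Over the H3K4me3 regions of any named promoter 66.1% rose, with medians of 1.02 in KO1 and 0.99 in KO2, so that the share over the initiation factor and synthetase promoters (73.5%) was near that of other promoters. In both lines 99 of the 113 regions were higher in +HOT, 9 were lower in both and 5 went opposite ways. Over any named promoter 12602 of 14772 were higher in both lines and 1102 lower in both, which is near the same share. With the median region of all H3K4me1 set to 0, 59 rose and 3 fell, with a median of 0.87. By the matching limits, a log2 ratio over 0.58 in each line and over 20 reads, 83 of the 123 regions were gained, against 9.76% of all. The standard errors lay between 0.237 and 0.279 (n = 2 lines).

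The change went with the place of the H3K4me1 region. Of 40 tested regions that lie wholly inside an H3K4me3 region 39 rose, with a median of 1.73, against 90.7% and 1.69 over all promoters. These regions had few reads before treatment, a median of 20.9 per kb in KO1 and 24.1 in KO2, and 68.8 and 95.4 in +HOT. The exception was the region inside the upstream region of Eif2b5, with 20 to 46 in KO1 and 34 to 35.5 in KO2 (0.61, adjusted p = 0.157). Of 9 regions that span an H3K4me3 region 8 rose, with a median of 0.91, against 56.1% and 0.79 over all promoters. At the upstream edge 11 of 22 rose and 1 fell, with a median of 0.85 (51.5% and 0.75 over all promoters). At the downstream edge 25 of 40 rose and 1 fell, with a median of 0.85 (55.7% and 0.80). Eif3j2 and Eif4e had an edge region whose side could not be assigned.

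The minimum on reads bears on the inside regions, since a region with few -HOT reads entered the test only through its +HOT reads. Of the 40 inside regions 22 had at most 20 reads in -HOT of a line, and all of the 18 above that rose. Over all positions 60 of the 89 regions above it rose, and 23 of the 24 at or under it. Where less than 50% of the H3K4me1 region lay within the H3K4me3 region, 1 of 9 rose and 2 fell, with a median of -0.35, and the median reads per kb were 54.1 in -HOT and 49.3 in +HOT in KO1, and 52.6 and 42.2 in KO2. Over all promoters 11.2% of such regions rose, with a median of 0.18.

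**Figure D4:**
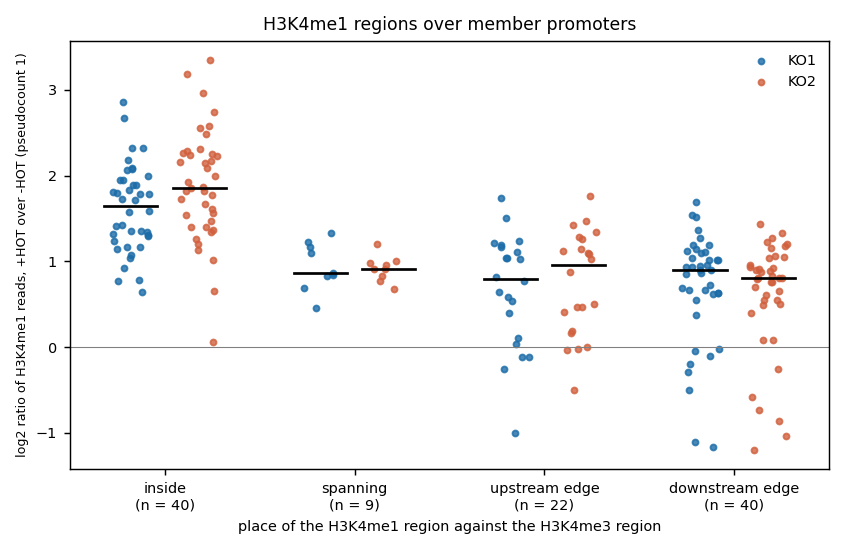
Each point is an H3K4me1 region over an initiation factor or synthetase promoter, placed by its position against the H3K4me3 region on the x axis, with its log2 ratio of reads of +HOT over -HOT on the y axis for KO1 (blue) and KO2 (orange) and a black bar at the median of each line. The 40 inside regions center near 1.65 in KO1 and 1.86 in KO2 and all lie above 0, while some regions at the edges lie below 0.

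The largest rises were all inside. At Eif5 the H3K4me1 reads of KO1 went from 7 to 50 and those of KO2 from 9 to 90.0 (2.93, adjusted p = 9.1e-07). At Wars (tryptophan) they went from 5 to 29 and from 5 to 60.0 (2.83, adjusted p = 2.2e-06), and at Nars (asparagine) from 10 to 79 and from 20 to 92.7 (2.51, adjusted p = 3.6e-06). At Eif1ax they went from 9 to 49 and from 14 to 87.3 (2.44, adjusted p = 2.8e-06). The eIF4E-binding proteins followed, Eif4ebp1 with 29 to 103 and 22 to 179 (2.38, adjusted p = 1.3e-05) and Eif4ebp2 with 19 to 83 and 20 to 125 (2.33, adjusted p = 5.2e-06). In each the +HOT reads of both lines were above both -HOT values. All of these but Eif4ebp1 had at most 20 reads in -HOT of both lines and so entered the test through their +HOT reads.

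The largest falls lay at edges. Eif3m had a downstream edge region of 359 bp that fell from 27 to 12 and from 31 to 14.5 (-1.07, adjusted p = 0.00364), Eif3j2 a region that fell from 28 to 17 and from 36 to 19.1 (-0.78, adjusted p = 0.0302), and Eif5 an upstream edge region that fell from 65 to 32 and from 52 to 36.4 (-0.75, adjusted p = 0.0438). These calls depended on the fit: Eif3m and Eif3j2 were not called with edgeR, Eif5 was not with the median region set to 0, and none of the 3 was without the line block. The next were not called: Eif4a3 with 26 to 11 and 23 to 19.1 (-0.71, adjusted p = 0.0775), Tars with 38 to 33 and 64 to 27.3 (-0.70, adjusted p = 0.0906), and Nars with 64 to 45 and 72 to 39.1 (-0.68, adjusted p = 0.0651). Eif3m, Eif3j2, Eif5, Eif4a3, Tars and Nars each also had a region inside the H3K4me3 region that rose, so that at Eif5 the inside rose by 2.93 and the upstream edge fell by 0.75 on the log2 scale.

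By role, 23 of 27 H3K4me1 regions rose over the cytosolic synthetases and 9 of 10 over the mitochondrial, 5 of 6 over the eIF2 kinases, 5 of 6 over eIF2B, 13 of 20 over the start codon factors, where 1 fell, 14 of 22 over eIF3, where 2 fell, 7 of 14 over the cap-binding and helicase factors and 3 of 3 over the eIF4E inhibitors, against 66.1% over any named promoter. Over Mrs2 and Rrs1 4 of 5 rose. Sars held a long inside region of 2288 bp that rose from 44 to 154 and from 49 to 234 (2.01), and Yars a region that rose from 16 to 62 and from 11 to 79.1 (2.31). At Eif4e3, which kept the lowest share of H3K4me3 when each gene is taken at its strongest region, both H3K4me1 regions were under the minimum, with 6 to 8 and 19 to 12.7 reads in the longer. At Eif4b, Eif4a1 and Eif4e no region was called, with values from 0.23 to 0.59.

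At 79 of the 90 H3K4me3 regions an H3K4me1 region was present, and the summed H3K4me1 reads were higher in +HOT in both lines at 75 of them, with a median log2 ratio of 1.04 in KO1 and 0.96 in KO2. The exceptions were at Eif5, at both regions of Eif2s2 and at the upstream region of Eif2ak3. A risen H3K4me1 region overlapped 65 of the H3K4me3 regions, 39 of the 45 that fell and 26 of the 33 without a call. These counts per H3K4me3 region were not made for other promoters. Over any named promoter 66.1% of the tested H3K4me1 regions rose, and 12602 of 14772 were higher in +HOT in both lines. Of the 11 regions without an H3K4me1 region, 6 lie on chromosome 1 where the KO1 table of H3K4me1 had damaged coordinates and was not used. There, KO2 alone gave 11 H3K4me1 regions at Eif5b, Mars2, Farsb, Eif4e2, Dars and Eif2d, 9 higher and 2 lower in +HOT, with log2 ratios from -1.63 at Farsb to 3.77 at Eif4e2. That highest value rests on 1 read in -HOT and 26.4 in +HOT, and no test was made over a single line. The other 5 are both regions of Eif4enif1 and the weaker regions of Eif4a1, Eif5a2 and Eif1ax.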

How the data were processed

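H3K4me3 and H3K4me1 ChIP-seq of the KO1 and KO2 lines was analysed, 8 of 20 samples, and the other 12 were not used here. Per the study's methods, the authors trimmed reads with Trim_Galore, aligned them to mm9 with BWA, removed duplicates (Picard) and blacklisted regions, called regions with Macs2 (narrow for H3K4me3, broad for H3K4me1) and annotated them with Homer. Tool versions are not given in the sources used here. The deposited signal values hold the reads of each region divided by 1 factor per library, with which the authors matched the lowest coverage of the line, and the deposited count columns hold whole reads, undivided. Values times the factor are whole within 0.001 in 100.0% of cases. The deposited log2 ratios and the lists of lost and gained regions are the authors' own comparisons and were not used, while their lists of promoters by level gave the gene names and the classes High, Medium and Low. In the KO1 and KO2 tables of H3K4me1, 5615 regions on chromosome 1 with damaged KO1 coordinates were left out.

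A region was tested where, in each line, its higher value of -HOT and +HOT was over 20 reads. limma 3.58.1 (R 4.3.3) was fitted to log2(value + 1) with a line block, and p-values were adjusted by Benjamini-Hochberg over all tested regions, with 0.05 as the limit. A fold change on this scale understates that of regions with few reads. The line is the replicate and pairs -HOT with +HOT, being the same cell line, and with condition means removed the paired libraries correlated at 0.587 (H3K4me3) and 0.58 (H3K4me1). Whether the libraries of a line came from separate cultures is not stated. The test was checked on simulated data. Promoter windows and start sites came from the mm9 reference and its GENCODE annotation. Members, role lists and other gene lists were chosen with earlier results of these data known. Values in every library are given for the lowest, median and highest region of each role, the 12 uncalled H3K4me3 regions with most -HOT reads, the 6 largest rises and falls of H3K4me1 and the lowest and highest gene of each pathway list, and other values named were chosen after they were seen. Of the pathway lists, Eef1d, Cebpb, Deptor, Tsc2, Lamtor1, Larp4, Dhx29 and Dap5 (another name of Eif4g2) were not tested. Alternatives were another pseudocount, read minimum, log2 limit, distance and overlap, no block, median scaling, a limma trend, each line alone, edgeR 4.0.16, and, added after seeing the data, the set without Mrs2 and Rrs1. Python 3.11.15, numpy 2.4.6, pandas 2.3.3 and matplotlib 3.10.9 were used. Some items are not reported here.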

Additional observations from a re-analysis of the deposited data

Results flagged for a closer look

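At 5 of the H3K4me1 regions over the read minimum KO1 and KO2 moved in opposite directions, and these differences between the lines were not tested. Regions under the minimum were left out, among them a region of Eif1b and a region of Eif4e3 that also went opposite ways. The log2 ratio of KO2 minus that of KO1 was -0.42 at the upstream edge of Eif2ak3 (0.40 in KO1 and -0.02 in KO2), 0.70 at Eif2s2 (-0.05 and 0.65), 0.53 at Eif3e (-0.12 and 0.41), 0.27 at Eif4g1 (-0.11 and 0.16) and 0.37 at the downstream edge of Eif5 (-0.29 and 0.09). None of the 5 was called.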

How the results depend on the processing

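The main limit is that 2 lines with 1 library each carry every test, and the H3K4me3 scaling has no external standard. Of H3K4me3 regions 52 fell, but 18 without a read minimum, 3 once each line's median log2 ratio was put at 0, and 85 with a limma trend or with edgeR (49 with a pseudocount of 5, 71 with more than 50 reads, 50 without Mrs2 and Rrs1). With the median at 0, 25 rose in place of 0. Without the replicate block 0 of the 87 H3K4me3 regions fell, 36 H3K4me1 regions rose in place of 83 and 0 fell in place of 3. Without a read minimum 32 H3K4me1 regions rose and 0 fell. The median H3K4me3 log2 ratio, -0.87, was 0.475 with the median at 0, and -1.02 to -0.74 for single lines. The median of H3K4me1, 1.06, was 1.00 with a pseudocount of 5, 1.04 without a read minimum and 0.87 with the median at 0, and 1.05 to 1.07 for single lines. Of 66 lost H3K4me3 regions 15 were left beyond a log2 ratio of 1 and 3 with the median at 0, with 66 to 90 for single lines, and of 83 gained H3K4me1 regions 55 beyond 1, with 89 to 92 for single lines. The count of genes that fell, 45, was 50 at the region nearest the TSS and 45 within 1000 bp, and that of H3K4me3 regions with gained H3K4me1, 66, stayed at 66 for an overlap of 50%. With the median at 0 these named H3K4me3 regions turned from negative to positive log2 ratios: Sars 0.51, Yars 0.72, Eif2ak1 0.44, Eif2ak2 0.63, Eif2b3 0.60, Eif2b4 0.69, Eif3g 0.57, Eif3e 0.78, Eif4g3 0.41, Eif4g2 0.81, Eif4ebp1 0.17, Eif4enif1 0.20 and 0.76, Pars2 0.11, Aars2 0.71, Rrs1 0.32, Mrs2 0.49, Eif5 0.52, Eif1 0.78, Eif1a 0.62, Eif2a 0.74, Eif3b 0.61, Eif4a1 0.73, Iars 0.61, Eif4b 0.56, Eif2s2 0.63 and Hars 0.57. That the sign follows the scaling is by its construction, since the median shift was -1.06 in KO1 and -1.63 in KO2 (H3K4me1 0.30 and 0.08). Why the trend and edgeR call more regions was not tested. The pairing comes from the cell line, so the fit with the block is the one reported.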
